A study of Mus musculus with 384 samples.

Results

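The genes described here encode the machinery that carries a signal from the T cell receptor into the cell. A list of 38 genes was looked up by symbol in a table of 23420 genes, and all 38 were found. They were divided by role into the receptor complex (4 genes), surface receptors that tune it (3), kinases (6), adaptors (10), effector enzymes (5), phosphatases and their relatives (6), ubiquitin ligases (2) and diacylglycerol kinases (2). The values come from single T cells sorted from B16F10 melanoma, a transplantable mouse melanoma line, carried by C57BL/6 mice. All groups share this strain and tumour, and no tumour-free group is analysed here. The 4 groups were CD8 T cells of wild-type mice, CD8 T cells of mice labelled Il27ra knockout, CD4 T cells of wild-type mice and CD4 T cells of mice labelled Il27ra knockout. Il27ra encodes the receptor chain specific for interleukin 27, a cytokine that acts on T cells. Each group was 1 plate with 94 single-cell wells, 1 well named Population and 1 well named No_Cell. The sources used here do not give the age of the mice, the cells in which the deletion acts, or the number of cells in a population well. The treatment label mentions CD8 cells alone, and the plates were assigned by their titles. The source code in the titles was read as 1 source per genotype, which is an assumption, so genotype, source and plate cannot be told apart.

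The T cell receptor itself has no enzyme activity. Its partner chains CD3 delta, CD3 epsilon, CD3 gamma and zeta (Cd3d, Cd3e, Cd3g, Cd247) carry tyrosine motifs that the kinase Lck phosphorylates, which brings in the kinase Zap70. Zap70 then phosphorylates the scaffold adaptors LAT and SLP-76 (Lat, Lcp2), on which phospholipase C gamma, Vav1 and the Ras activators assemble to start calcium, Ras and NF-kB signalling. Phosphatases such as SHP-1 (Ptpn6), Csk, Cbl-family ubiquitin ligases and diacylglycerol kinases set the threshold and end the signal. The phosphatase CD45 (Ptprc), grouped with them here, is not an enzyme that only ends the signal. CD5 and CD6 are surface receptors that dampen it in most settings, and CD2 is an adhesion and costimulatory receptor.

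The promoter windows of 5 members are shown: the 3 clustered CD3 genes, which are neighbours on chromosome 9, and Cd5 and Themis, which differed in opposite directions between CD4 and CD8 cells both in single cells and in population libraries. Each window runs from 250 bases before to 50 bases after a transcript start, taken from RefSeq (build GRCm38.p6) and printed in the direction of transcription. By GENCODE M21 on GRCm38, the starts of Cd3g and Cd3d lie 1355 bases apart and the genes run away from each other, and the start of Cd3e lies 27841 bases beyond that of Cd3d. Capitals mark the letters CAGGAA (1 form of the site that ETS factors bind) and CAGGTG (an E-box). Each was searched on both strands, where they read TTCCTG and CACCTG. The windows lie at chr9:44981536-44981835, plus strand (Cd3d), chr9:44980382-44980681, minus strand (Cd3g), chr9:45009562-45009861, minus strand (Cd3e), chr19:10738925-10739224, minus strand (Cd5) and chr10:28668110-28668409, plus strand (Themis, the first of 2 listed starts).
Cd3d: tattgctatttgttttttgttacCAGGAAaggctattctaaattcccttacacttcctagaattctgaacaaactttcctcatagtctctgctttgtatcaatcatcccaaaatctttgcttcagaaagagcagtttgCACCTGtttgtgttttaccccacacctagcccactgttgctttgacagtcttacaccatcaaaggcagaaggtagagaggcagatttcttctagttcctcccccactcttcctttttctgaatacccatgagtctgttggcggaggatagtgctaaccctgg
Cd3g: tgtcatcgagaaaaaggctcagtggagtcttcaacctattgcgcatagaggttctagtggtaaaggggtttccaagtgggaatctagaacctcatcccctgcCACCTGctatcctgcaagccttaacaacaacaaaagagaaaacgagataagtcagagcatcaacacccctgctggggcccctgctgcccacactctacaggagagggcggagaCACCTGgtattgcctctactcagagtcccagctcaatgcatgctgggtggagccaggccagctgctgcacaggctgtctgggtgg
Cd3e: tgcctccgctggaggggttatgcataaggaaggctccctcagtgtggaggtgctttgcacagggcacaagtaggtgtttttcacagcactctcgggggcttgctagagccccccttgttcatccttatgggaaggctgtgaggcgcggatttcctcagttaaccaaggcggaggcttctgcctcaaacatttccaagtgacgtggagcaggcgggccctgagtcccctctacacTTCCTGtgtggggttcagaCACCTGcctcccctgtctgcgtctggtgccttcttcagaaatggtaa
Cd5: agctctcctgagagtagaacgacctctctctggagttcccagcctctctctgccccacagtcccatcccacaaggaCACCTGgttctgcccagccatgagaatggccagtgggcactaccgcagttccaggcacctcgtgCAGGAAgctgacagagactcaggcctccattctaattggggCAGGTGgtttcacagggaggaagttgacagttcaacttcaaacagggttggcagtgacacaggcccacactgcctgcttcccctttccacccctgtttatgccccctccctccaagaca
Themis: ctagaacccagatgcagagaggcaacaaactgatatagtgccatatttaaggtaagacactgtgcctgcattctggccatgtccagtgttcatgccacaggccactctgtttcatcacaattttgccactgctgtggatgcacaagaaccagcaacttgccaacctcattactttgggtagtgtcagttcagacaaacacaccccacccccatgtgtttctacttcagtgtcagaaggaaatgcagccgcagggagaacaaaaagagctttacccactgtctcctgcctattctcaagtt
The E-box letters occurred once in the Cd3d and Cd3e windows, 2 times in those of Cd3g and Cd5, and not in that of Themis. The letters CAGGAA occurred once in Cd3d, Cd3e and Cd5 and not in Cd3g or Themis. The shorter ETS core GGAA was not searched by itself, and it stands unmarked in windows that include those of Cd3g and Themis. None of the 5 windows held the RUNX letters TGTGGT, the alternative ETS letters CCGGAA or the TATA letters TATAAA on either strand. Windows were found for 33 of the 38 members (48 windows). Of these windows 50% held CAGGAA, against 30.6% of all 32851 windows. The letters CAGGTG were in 35.4% of member windows against 20.2% of all, TGTGGT in 14.6% against 16.8%, CCGGAA in 8.33% against 14.9%, and TATAAA in 8.33% against 13.6%. Some genes have more than 1 window, a few of which overlap, and a match is a description of letters only.

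The deposited values are FPKM, fragments scaled to transcript length and library size, so levels are per length and may be compared between genes. Detection means a value of 1 FPKM or more, and wells with at least 1000 detected genes were kept as cells. This left 72 wild-type CD8 cells, 77 labelled-knockout CD8 cells, 74 wild-type CD4 cells and 78 labelled-knockout CD4 cells, each out of 94 wells. Median detected genes were 2530.5, 2243, 2047 and 2091 in that order, against 9918 to 10848 in the population libraries and 6 to 26 in the no-cell wells. Il27ra was detected in 51.4% and 36.5% of wild-type CD8 and CD4 cells and in 57.1% and 47.4% of those labelled knockout, so its value does not check the genotype labels. The sources used here do not say which bases the deletion removes, and reads outside them would still be counted. The coreceptor Cd8b1 was found in 88.9% and 84.4% of cells on the CD8 plates and in 25.7% and 23.1% on the CD4 plates, where the median of detecting cells was 2.58 and 2.42 FPKM. Cd4 was found in 89.2% and 91% of CD4 cells and in 0 of 72 and 1 of 77 CD8 cells. Markers of other cells were present in part of the wells. Melanoma markers other than Tyr (Mlana, Pmel, Dct, Tyrp1) were detected in 5.13% to 22.2% of cells of a plate, at least 1 of 7 myeloid markers in 20.3% to 31.9%, and the regulatory T cell factor Foxp3 in 27 and 37 of the CD4 cells and in 0 and 2 of the CD8 cells. Summed over each list, the mean per cell was 427, 18.2, 53.3 and 8.55 FPKM for the melanoma markers and 322.7, 125.8, 1969 and 601.7 FPKM for the myeloid ones, in the plate order just given. Single wells weigh heavily in the myeloid means of the CD4 plates. The highest Lyz2 value was 43436 FPKM on the wild-type CD4 plate and 26410 FPKM on the labelled-knockout one, and the highest Apoe value on the wild-type CD4 plate was 38683 FPKM. At least 1 of 3 NK cell markers was detected in 2.56% to 20.8% of cells, and the NK cell marker Ncr1 reached detection in no kept cell. At least 1 of 3 stromal markers was detected in 18.1% to 25.7%, nearly all of it Pecam1, in 12, 15, 19 and 19 cells. The collagen gene Col1a1 was detected in 0, 2, 0 and 0 cells and Col1a2 in 1, 0, 0 and 0. Tyr was detected in 97.4% to 100% of the cells of a plate. The population libraries also held such markers, at unequal levels. Cd8b1 stood at 122.19 FPKM in the labelled-knockout CD4 library and 5.34 FPKM in the wild-type one, with Cd8a below 1 FPKM in both. Gzma and Ncr1, both on the NK cell list, were at 168.03 and 12.61 FPKM in the former and at 0 in the latter. The melanoma sum was higher in the latter, 99.01 against 21.76 FPKM. Gzma was also at 217.52 and 443.48 FPKM in the CD8 libraries and detected in 5 and 9 kept CD8 cells, where Ncr1 was not detected. Gzma therefore cannot be read here as a marker of NK cells alone. Summed myeloid markers ran from 54.65 FPKM in wild-type CD4 to 499.6 FPKM in labelled-knockout CD8.

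Most of the machinery was detected in most cells. Averaged over the 4 plates, 23 of 38 members were detected in at least 50% of cells, 34 in at least 25% and 37 in at least 10%. The range ran from 96.3% for Ptprc, which encodes the receptor phosphatase CD45, to 7.62% for Sos1, a Ras activator. Below Ptprc came Cd3e (89.4%), Lck (88.1%), Cd3g (84.4%), Cd3d (83.9%) and Lat (83.7%). These 6 genes are the pan-leukocyte phosphatase, 3 chains of the receptor, its first kinase and its main scaffold. At the low end stood Grap2 (19.4%) and Grb2 (22.3%), adaptors that couple LAT to SLP-76 and to Sos1, and Ubash3b (24.3%), a phosphatase that acts on Zap70. A gene that is low in a single-cell library can be missed in a cell that expresses it, so low shares cannot be read as absence. In the population libraries, fewer expressing cells and less RNA per cell cannot be told apart. All 38 members were above 0 there, and the lowest was again Sos1, at 2.8, 2.3, 0.8 and 6.9 FPKM (wild-type CD8, labelled-knockout CD8, wild-type CD4, labelled-knockout CD4, the order used throughout).

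**Figure D1:**
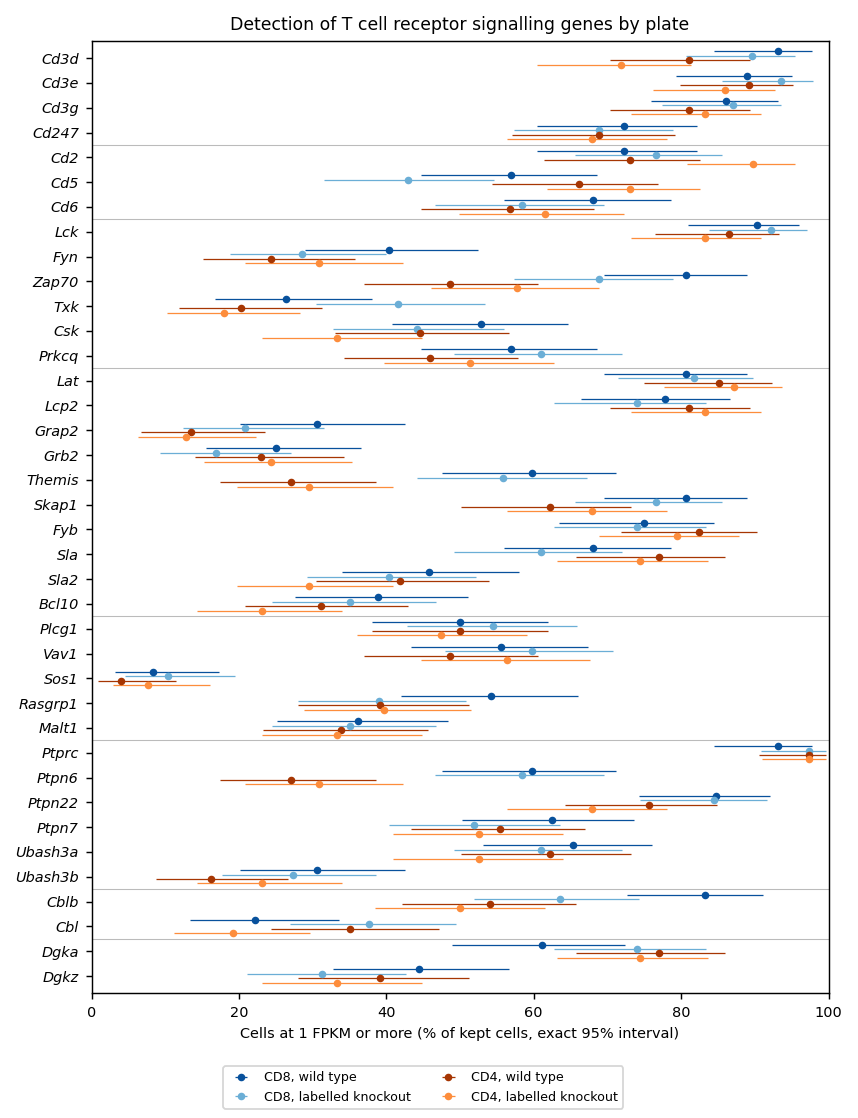
Share of kept cells at 1 FPKM or more (x axis, percent) for each of the 38 genes (y axis, grouped by role, grey lines between roles) on the 4 plates, with exact 95% intervals that cover counting error only. Ptprc, Lck and Cd3e are above 80% on every plate, and Themis and Ptpn6 show CD8 points apart from CD4 points in both sources.

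The receptor chains were all widely detected. Cd3g had the highest population values of the 4 chains, at 2954, 2030, 2161 and 1945 FPKM. Cd247, the zeta chain, was detected in 72.2%, 68.8%, 68.9% and 67.9% of cells, fewer than any CD3 chain on every plate, and its population values were 834.9, 511.1, 1238 and 879.6 FPKM. The plates of both sources lay within a few points of each other for Cd247, and all 4 intervals overlapped. Its mean log2(FPKM + 1) over cells was 6.24, 5.51, 6.14 and 5.93.

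In single cells, 6 of the 38 members were lower and 1 was higher in CD4 than in CD8 cells. The lower ones were Ptpn6, Zap70, Themis, Cd3d, Cblb and Txk, and the higher one was Cd5. They were compared through the mean of log2(FPKM + 1) over the cells of each plate, with limma across all genes, the source as a block, Benjamini-Hochberg adjustment and a threshold of 0.05. On that scale changes of low genes are understated, and the mean also carries the share of cells with detection. Over all 8427 genes tested, 6.32% were lower and 1.12% higher in CD4 cells. Among the members 15.8% were lower and 2.63% higher. The median difference was -0.43 over the members and -0.27 over all genes, and 21 members lay below the median of all genes and 17 above it. With 4 plates and 1 residual degree of freedom, the errors rest on the spread pooled over genes. The number of calls changed with most alternatives. When each plate was centred on its median, none of the members passed, and over all genes 23 were lower and 48 higher instead of 533 and 94. The 7 members kept their direction in all alternatives run.

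Ptpn6 encodes SHP-1, a phosphatase that removes activating phosphates from the receptor's kinases. Detection reached 59.7% and 58.4% on the CD8 plates and 27% and 30.8% on the CD4 plates. Its plate means were 5.28 and 4.90 in CD8 and 2.37 and 2.64 in CD4, and the plates of the 2 cell types did not overlap. The difference was -2.59 (SE 0.53, limma adjusted p = 0.00018). Among cells with detection, the median was 587.3 and 512.5 FPKM for CD8 plates against 568.6 and 452.4 FPKM for CD4 plates, so the values of detecting cells overlapped while the shares did not. In the population libraries Ptpn6 was at 524.5 and 614.7 FPKM in CD8 and 389.9 and 292.6 FPKM in CD4, again without overlap, a difference of -0.75 (SE 0.32, limma adjusted p = 0.33).

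Of the 6 kinases, 2 passed the test, both lower in CD4 cells. Zap70, the kinase that docks on the phosphorylated CD3 and zeta chains, had detection in 80.6% and 68.8% on the CD8 plates and in 48.6% and 57.7% on the CD4 plates. Its plate means were 6.57 and 6.10 against 3.78 and 4.61, a difference of -2.14 (SE 0.58, limma adjusted p = 0.0087). The plates did not overlap. The population libraries did not show this difference: Zap70 stood at 712.1 and 521.0 FPKM in CD8 and at 609.6 and 684.3 FPKM in CD4, a difference of 0.08 with a 95% half-width of 0.70. Txk, a Tec-family kinase that phosphorylates phospholipase C gamma, was detected in 26.4%, 41.6%, 20.3% and 17.9% of cells. Its plate means were 1.75 and 3.01 in CD8 against 1.20 and 1.05 in CD4, a difference of -1.25 (SE 0.39, limma adjusted p = 0.027). Its population values overlapped, at 84.8 and 139.3 FPKM in CD8 and 94.9 and 83.7 FPKM in CD4. Without the labelled-knockout CD8 plate, the highest of the 4, the Txk difference was -0.62. Lck, Fyn, Csk and Prkcq did not pass, with differences averaged over both sources from -0.44 to -0.95 in cells and from -0.08 to 0.38 in the population libraries.

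Among the adaptors 1 of 10 passed. Themis encodes a T cell adaptor that works with SHP-1 and is best known for its part in thymic selection. On the CD8 plates 59.7% and 55.8% of cells had it, on the CD4 plates 27% and 29.5%. Plate means were 3.68 and 3.44 against 1.6 and 1.87, a difference of -1.82 (SE 0.46, limma adjusted p = 0.0041). Population values gave nearly the same size: 142.7 and 142.2 FPKM in CD8 against 53.3 and 30.9 FPKM in CD4, a difference of -1.79 (SE 0.47, limma adjusted p = 0.17). CD8 was the higher in both sources and in both kinds of library. Without Foxp3-positive cells the difference in cells was -0.93 (limma adjusted p = 0.34). The other 9 adaptors had differences from -1.09 for Skap1, an adaptor of integrin activation, to 1.34 for Sla, which encodes SLAP, an adaptor that promotes receptor degradation. Skap1 was detected in 80.6%, 76.6%, 62.2% and 67.9% of cells, with plate means of 6.21, 5.71, 4.72 and 5.02. Its population values, 331.4 and 392.2 FPKM in CD8 and 365.02 and 519.02 FPKM in CD4, overlapped.

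**Figure D2:**
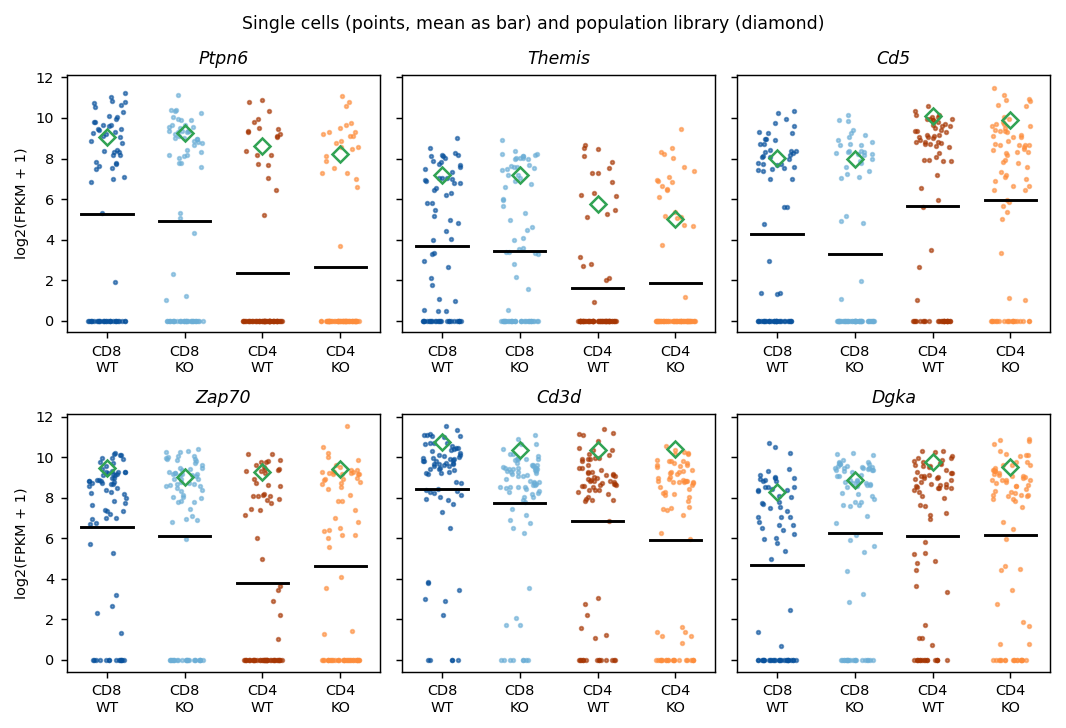
Values of single cells (points) on a log2(FPKM + 1) scale for 6 genes on the 4 plates, with the mean over cells as a black bar and the population library of the plate as a green diamond (WT, wild type; KO, labelled knockout). For Ptpn6 and Themis fewer CD4 points lie above 0, while Zap70 and Cd3d diamonds stand at similar heights in CD4 and CD8.

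Within the receptor complex, Cd3d was found in 93.1% and 89.6% of cells on the CD8 plates and 81.1% and 71.8% on the CD4 plates. Its plate means were 8.44 and 7.73 against 6.88 and 5.91, without overlap, a difference of -1.69 (SE 0.56, limma adjusted p = 0.038). The population values were 1735.5 and 1332.5 FPKM in CD8 and 1321 and 1349.6 FPKM in CD4, which overlapped, and differed by -0.19 with a half-width of 0.66. Cd3e differed by -1.39 in cells (limma adjusted p = 0.11) and by -1.16 in the population libraries (limma adjusted p = 0.17), Cd3g by -0.91 and -0.26, and Cd247 by 0.16 and 0.67. The 3 clustered CD3 genes, whose promoter windows are printed above, were therefore on the same side in cells, with 1 of them past the threshold. That side is also the side of the median over all genes, -0.27.

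Of the 3 surface receptors, 1 passed, as higher in CD4 cells. Cd5, which recruits inhibitory enzymes to the receptor and scales with the strength of receptor signals in thymocytes, was found in 56.9% and 42.9% of cells on the CD8 plates and 66.2% and 73.1% on the CD4 plates. Plate means were 4.30 and 3.31 against 5.67 and 5.96, a difference of 2.02 (SE 0.57, limma adjusted p = 0.013). The population libraries stood at 258.6 and 252.9 FPKM in CD8 and at 1081 and 950.8 FPKM in CD4, a difference of 1.98 (SE 0.29, limma adjusted p = 0.054). CD4 was higher in both sources in each kind of library, with no overlap. Without Foxp3-positive cells the difference in cells was 1.31 (limma adjusted p = 0.22). Cd2 differed by 1.18 in cells and 0.97 in the population libraries, with limma adjusted p of 0.18 and 0.20, and its difference in cells was 0.03 in the wild-type source and 2.33 in the other. The Cd2 difference in cells was 0.13 (limma adjusted p = 0.94) without Foxp3-positive cells. Cd6 differed by 0.01 in cells and by 1.15 in the population libraries (limma adjusted p = 0.99 and 0.15).

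Of the 2 ubiquitin ligases, Cblb passed. It encodes Cbl-b, a ubiquitin ligase that raises the threshold for activation. The CD8 plates had it in 83.3% and 63.6% of cells and the CD4 plates in 54.1% and 50%, with plate means of 4.84 and 3.49 against 2.77 and 2.39. The difference was -1.58 (SE 0.51, limma adjusted p = 0.033). The population values were 117.2 and 51.8 FPKM in CD8 and 39.2 and 31.4 FPKM in CD4, a difference of -1.13 (SE 0.55, limma adjusted p = 0.40). CD8 was higher in each source, and the labelled-knockout CD8 plate stood nearer to the CD4 plates than the wild-type one did. Without the wild-type CD8 plate, the difference in cells was -0.90.

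Dgka, Vav1 and the remaining enzymes did not pass. Dgka encodes diacylglycerol kinase alpha, which removes the lipid that activates Ras. It had plate means of 4.66, 6.25, 6.14 and 6.17 and population values of 312.8, 464.6, 861.3 and 740.8 FPKM. The wild-type CD8 plate was the low one in cells, whereas in the population libraries both CD4 values lay above both CD8 values. The difference was 0.70 in cells (limma adjusted p = 0.51) and 1.07 in the population libraries (limma adjusted p = 0.20). Dgkz, the zeta form of the same enzyme, had plate means of 2.14, 1.51, 2.12 and 1.58 and population values of 31.4, 32.5, 29.9 and 24.4 FPKM. Vav1, an exchange factor for Rac, had plate means of 3.66, 4.38, 3.26 and 3.64 and population values of 176.4, 192.7, 206.6 and 248.7 FPKM. It had the widest difference of the 5 effector enzymes in cells, -0.57 with a half-width of 1.03.

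In the population libraries no member passed the test by limma with Benjamini-Hochberg adjustment, against 0.0182% of 11008 genes lower and 0.0182% higher. At an unadjusted p under 0.05, there were 11 members in the population libraries (28.9%, against 14.5% of all genes tested) and 12 in cells (31.6%, against 22.4%). The median difference over the members was 0.25 in the population libraries and -0.10 over all genes, so the members' median lay on opposite sides of that of all genes in the 2 kinds of library. Both come from the same sources. The part of other cells, whose markers were unequal between the population libraries, was not tested in any difference between those libraries. Of the 7 members that passed in cells, Ptpn6, Themis, Cblb and Cd5 had population libraries without overlap in the same direction, and Zap70, Cd3d and Txk did not. With 2 libraries against 2, such separation can arise without a difference. Its share over all genes was not computed, so it is a description only.

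**Figure D3:**
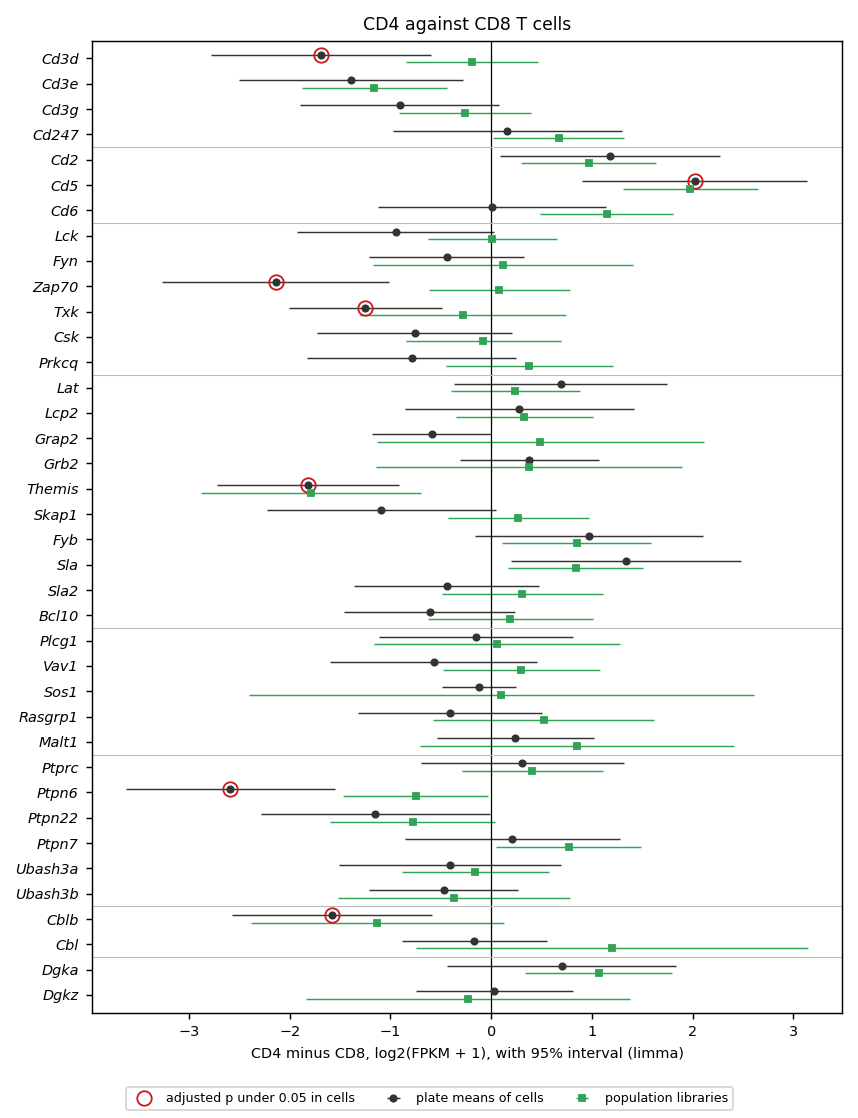
Difference CD4 minus CD8 in log2(FPKM + 1) (x axis) with 95% limma intervals for each of the 38 genes (y axis, by role), from plate means of cells (black circles) and from population libraries (green squares); red rings mark an adjusted p under 0.05 in cells. Themis and Cd5 have similar values in both kinds of library, while for Zap70 the value in cells is -2.14 and that in population libraries 0.08.

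The depth of the libraries moved with the CD4 and CD8 groups, since CD8 cells had more detected genes. When equal numbers of cells with like numbers of detected genes were drawn from each plate (38 cells each), the 6 lower members kept their sign and none of them passed, with Ptpn6 at -1.88, Zap70 at -1.28, Themis at -1.26, Cd3d at -1.04, Cblb at -1.76 and Txk at -1.39. Cd5, Cd2 and Sla then passed as higher in CD4 cells, Cd2 at 2.39 and Sla at 2.51. Cells with a melanoma marker other than Tyr, with 2 or more myeloid, B cell or stromal markers, or with the coreceptor of the other lineage made up 36.1%, 22.1%, 48.6% and 35.9% of the plates. Without them no member passed, and Ptpn6 was at -2.10, Zap70 at -2.10, Themis at -1.44, Cd3d at -1.18, Cblb at -1.29, Txk at -0.69 and Cd5 at 1.95. The coreceptor rule was met by 19 and 18 CD4 cells, against 0 and 1 CD8 cells. The median Cd8b1 value of those CD4 cells was 2.58 and 2.42 FPKM, so the filter was uneven between the cell types. At least 1 of 4 B cell markers was detected in 18.1%, 18.2%, 24.3% and 10.3% of cells, nearly all of it Cd22. The part of the cells left out in the differences was not tested beyond these values.

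Between genotypes there is 1 plate and 1 population library per cell type, so differences are given without a test. In CD8 cells, 3 members were at least 1 log2 lower on the plate labelled knockout (Cblb, Ptpn7 and Cd6) and 4 at least 1 log2 higher (Dgka, Txk, Cbl and Ptprc). Over all 8117 genes 9.19% were that much lower and 2.07% that much higher, so lower members were 7.89% and higher members 10.5%. The median difference was -0.29 over the members and -0.22 over all genes. Exact 95% intervals of the share of cells overlapped between genotypes for all 38 members in both cell types. The share of all genes with such overlap was not computed, so this does not set the members apart from other genes.

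Dgka had the widest difference in CD8 cells, 1.59. It was detected in 61.1% of wild-type and 74% of labelled-knockout CD8 cells, and on the CD4 plates in 77% and 74.4%. The population libraries of CD8 differed by 0.57 and those of CD4 by -0.22. Txk was higher by 1.26 in CD8 cells and by 0.71 in the CD8 population libraries. Matched on detected genes, the Txk difference was 0.28. Ptprc had plate means of 7.59, 8.62, 8.30 and 8.52 and population values of 618.6, 984.7, 1063 and 1018 FPKM, so the wild-type CD8 plate and library were the lowest of the 4. The CD8 difference of Ptprc was 1.04 over cells and 0.67 between population libraries.

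The lower members in CD8 cells divided by whether the population libraries followed. Cblb differed by -1.36 in cells and by -1.16 in the population libraries. Ptpn7, a phosphatase of MAP kinases, had plate means of 4.59, 3.32, 4.01 and 4.33 and population values of 240.9 and 215.1 FPKM in CD8 and 405.5 FPKM in wild-type CD4, with the labelled-knockout CD4 library differing from the latter by -0.12 log2. Its CD8 difference was -1.27 in cells, -0.30 with cells matched on detected genes, and -0.16 in the population libraries. Cd6 had plate means of 5.97, 4.75, 5.13 and 5.61 and population values of 561.6, 506.6, 1096 and 1285 FPKM. Its CD8 difference was -1.23 in cells and -0.15 in the population libraries. Within the receptor complex all 4 chains were lower on the labelled-knockout CD8 plate and library, from -0.14 to -0.73 in cells and from -0.28 to -0.71 in the population libraries. The widest of these was Cd247 in both. None of the 4 chains reached 1 log2. The median over all genes was -0.22 in cells, below the Cd3e value of -0.14, and 0.05 in the population libraries. The share of all genes below 0 was not computed.

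In CD4 cells, 4 of 37 members were at least 1 log2 lower on the plate labelled knockout (Ptpn22, Csk, Sla2 and Ubash3a) and 1 at least 1 log2 higher (Cd2). Over all 7063 genes 2.51% were that much lower and 2.53% that much higher, against 10.8% and 2.70% of members. Sos1 was not compared here, since it was detected in 4.05% and 7.69% of CD4 cells, under the minimum of 10%. Its only plate above that minimum was the labelled-knockout CD8 plate at 10.4%, and the wild-type CD8 plate stood at 8.33%. The median difference was 0.03 over the members and -0.04 over all genes.

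Cd2 had plate means of 6.83, 6.50, 6.86 and 8.83. It was detected in 72.2%, 76.6%, 73% and 89.7% of cells, so the labelled-knockout CD4 plate was the high one. Population values of Cd2 were 1146, 941.6, 1867 and 2210 FPKM, and the CD4 population difference was 0.24 against 1.97 in cells. With arithmetic means over cells the difference was 0.53. The values in Foxp3-negative cells gave 2.12.

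Ptpn22 encodes a phosphatase that acts with Csk on Lck and Zap70. Its plate means were 6.59, 6.21, 6.03 and 4.47, its shares 84.7%, 84.4%, 75.7% and 67.9%, and its population values 481.1, 691.2, 417.5 and 268.1 FPKM. The labelled-knockout CD4 plate and library were the lowest of the 4, with differences of -1.55 in cells and -0.64 in the population libraries. Csk, the kinase that holds Lck inactive, had plate means of 3.93, 3.22, 3.44 and 2.19 and population values of 215.2, 223.8, 223.96 and 192.66 FPKM. Its CD4 difference was -1.25 in cells, -0.64 with matched cells and -0.22 in the population libraries. Sla2, which encodes SLAP-2, a relative of SLAP, had plate means of 3.09, 2.95, 3.11 and 2.06 and population values of 201.5, 177.5, 203.96 and 268.47 FPKM, so the 2 kinds of library differed in sign for CD4, at -1.05 and 0.39. Ubash3a, which encodes a suppressor of receptor signalling, had plate means of 4.68, 4.73, 4.81 and 3.77 and population values of 304.4, 317.1, 304.8 and 252.5 FPKM, with CD4 differences of -1.04 and -0.27. Without Foxp3-positive cells the difference in cells was -0.59 for Sla2 and -0.72 for Ubash3a, both within 1 log2.

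Cbl, the ubiquitin ligase that marks activated kinases for degradation, went in opposite directions in the 2 cell types. It was detected in 22.2% of wild-type and 37.7% of labelled-knockout CD8 cells, and on the CD4 plates in 35.1% and 19.2%. Plate means were 0.95, 2.16, 1.80 and 0.98, which gives 1.21 in CD8 and -0.81 in CD4. The population libraries differed in the same directions, at 12.8 and 34.1 FPKM in CD8 and 90.8 and 27.01 FPKM in CD4, differences of 1.34 and -1.71. The difference between the cell types was not tested.

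In the population libraries 1 member was at least 1 log2 lower (Cblb) and 1 that much higher (Cbl) in CD8, against 12% and 16.1% of 11008 genes. In CD4, Cbl was lower and Sos1 and Ubash3b were higher, against 18.5% and 20.1% of genes. Of the members, 2.63% were lower and 2.63% higher in CD8, and 2.63% lower and 5.26% higher in CD4. Sos1 differed by 2.13 from values of 0.8 and 6.9 FPKM, both near the detection limit, and Ubash3b by 1.11 from 48.4 and 105.5 FPKM. The median difference over the members was 0.03 in CD8 and -0.20 in CD4, against 0.05 and 0.00 over all genes.

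**Figure D4:**
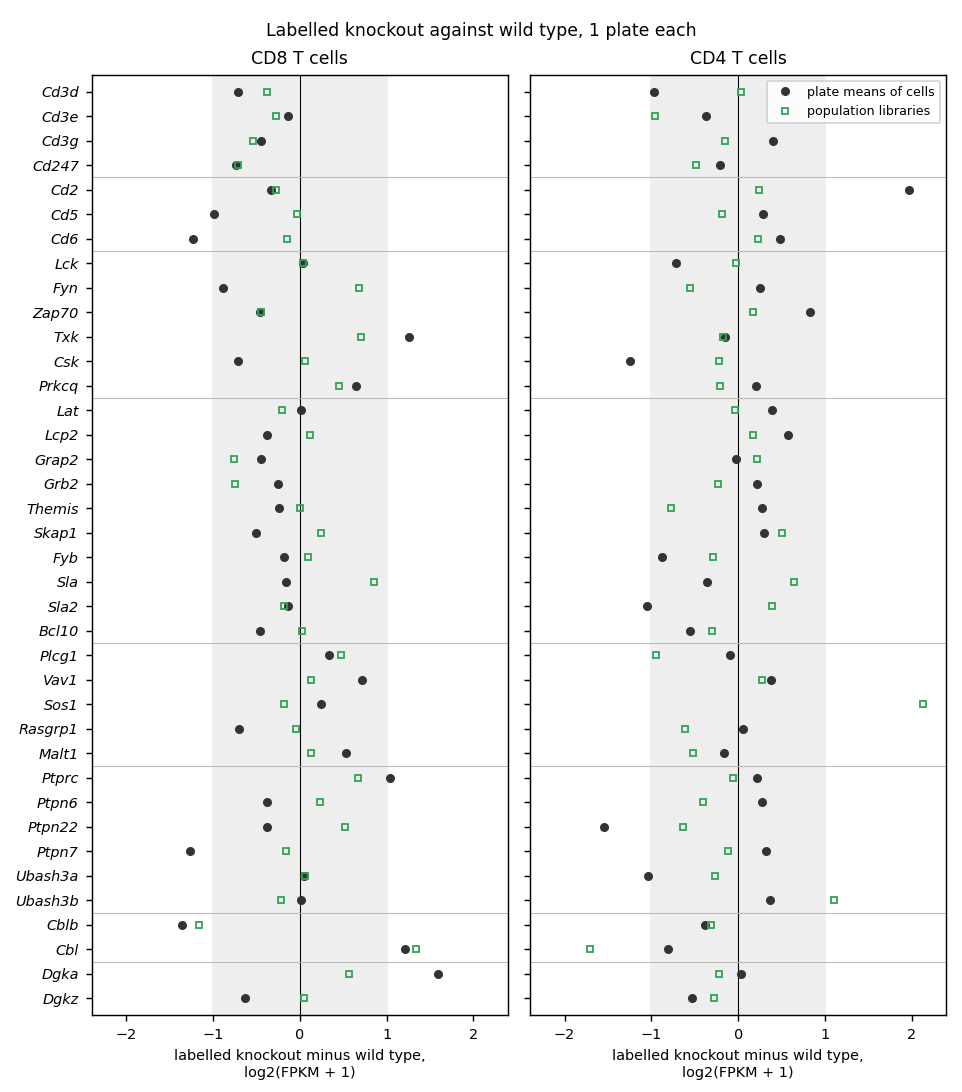
Labelled knockout minus wild type in log2(FPKM + 1) (x axes) for each of the 38 genes (y axis, by role) in CD8 (left) and CD4 (right), from plate means of cells (black circles) and population libraries (green squares); the grey band spans 1 log2 to either side of 0, and Sos1 has no value for CD4 cells. Each point is a difference of 1 plate or library against 1, with no test; Cblb and Cbl in CD8 lie outside the band in both kinds of library, and Cbl changes side between CD8 and CD4.

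Individual cells carried a median of 23, 22, 20 and 20 of the 38 members, with ranges of 1 to 35, 2 to 34, 1 to 31 and 10 to 31. At a limit of 10 FPKM the medians were 22, 21, 19 and 19. In 38 cells per plate with like numbers of detected genes the medians were 22.5, 21, 22 and 22, and the CD8 plates no longer stood higher as a pair. Spearman correlations of the number of members with the number of detected genes were 0.86, 0.70, 0.61 and 0.65 over 72, 77, 74 and 78 cells. They are descriptions, since both counts come from the same library and share its depth.

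All 4 receptor chains were detected together in 68.1% of wild-type CD8, 57.1% of labelled-knockout CD8, 55.4% of wild-type CD4 and 39.7% of labelled-knockout CD4 cells (exact 95% intervals 56 to 78.6, 45.4 to 68.4, 43.4 to 67 and 28.8 to 51.5). These intervals cover counting error only, and the read depth behind each FPKM is unknown. Cells with none of the 4 chains numbered 2, 1, 2 and 1. The kinases Lck and Zap70 and the scaffold Lat were detected together in 70.8%, 58.4%, 43.2% and 46.2% of cells. In the wild-type CD8 plate, cells with all 4 chains had a median of 2789 detected genes, and the 6 cells with 1 chain a median of 1153.5. The few cells with none of the chains did not follow this on every plate: their medians were 2479.5, 3102, 3298 and 1423 detected genes, against 2789, 2352, 2176 and 2235 in cells with all 4.

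**Figure D5:**
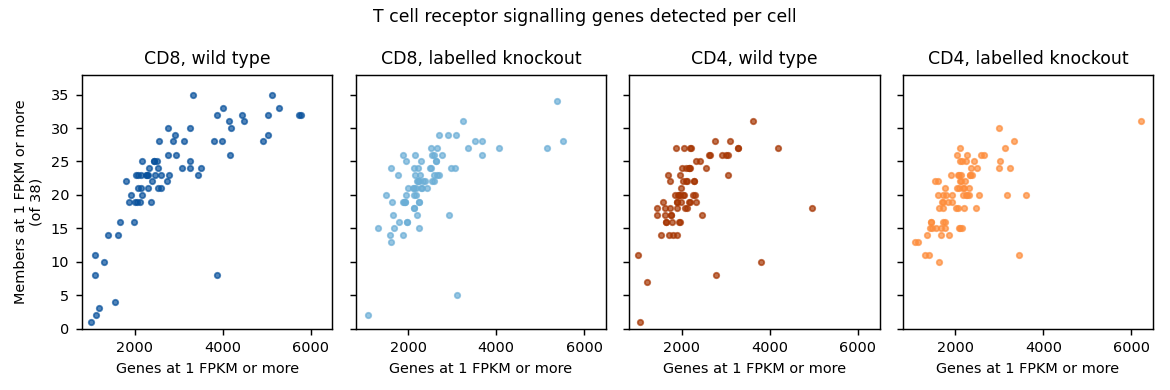
Number of the 38 genes at 1 FPKM or more in a cell (y axis) against all genes at that level in the same cell (x axis), 1 point per kept cell, 1 panel per plate. The number of members rises with the number of detected genes on each plate (Spearman 0.61 to 0.86), and on each plate at least 1 cell with many detected genes holds few members.

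Beyond the 38 genes, 47 other genes of the pathway were found of 48 looked for, in 6 groups chosen by function. By limma with Benjamini-Hochberg adjustment, 1 of the 45 tested in cells passed as higher in CD4 cells and 3 as lower, which is 2.22% and 6.67% against 1.12% and 6.32% of all genes. These shares are near the background. Nfkbia, which encodes the inhibitor of NF-kB and is itself induced by NF-kB, had plate means of 5.46, 7.09, 7.78 and 8.99, a CD4 minus CD8 difference of 2.11 (SE 0.55, limma adjusted p = 0.0064). It was the 1 of 8 NF-kB genes that passed, and its population values were 909.7, 1941, 2759 and 4725 FPKM, with both CD4 values above both CD8 values. Lax1, a membrane adaptor that restrains receptor signalling, had plate means of 3.43, 2.66, 1.42 and 1.15, a difference of -1.76 (SE 0.42, limma adjusted p = 0.0023), and was 1 of 10 membrane-near regulators to pass. Its population values overlapped, at 182.2 and 130.4 FPKM in CD8 and 147.2 and 89.9 FPKM in CD4, a difference of -0.42 (limma adjusted p = 0.70). Pik3cd, the catalytic subunit of PI3 kinase delta, differed by -1.81 (limma adjusted p = 0.026), and Nck1, an adaptor to the cytoskeleton, by -1.16 (limma adjusted p = 0.041). Their population differences were -0.03 and -0.36. No calcium and NFAT gene of 8 tested and no Ras and MAP kinase gene of 7 passed. The widest differences there were Nfatc1, an NFAT factor, at -1.11 (limma adjusted p = 0.16) and Nras, a Ras GTPase, at -1.36 (limma adjusted p = 0.11).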

How the data were processed

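Single T cells, 1 population well and 1 no-cell well per plate were sequenced by Smart-seq2, a full-length plate method without molecular identifiers, with bead clean-up, PCR amplification and tagmentation, per the labels' protocols. The values are FPKM with TMM scaling over libraries, in a table deposited by the authors with 23420 gene symbols and 384 libraries. Bowtie, RSEM and build mm10 are named in the submitters' processing notes, with no version or setting given in the sources used here. Since RSEM shares out reads that match several genes, values of close relatives are estimates. The table holds no read counts, so the read depth is unknown. An exact 0 is reported as listed at 0. Precision is limited by the number of cells per plate and by having 4 plates.

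Wells with at least 1000 genes at 1 FPKM or more were kept. For each plate, log2(FPKM + 1) was averaged over kept cells. Genes at 1 FPKM or more in at least 10% of cells of at least 1 plate were compared between CD4 and CD8 with limma 3.58.1 in R 4.3.3 (lmFit, eBayes with trend, source as a block), and genes at 1 FPKM or more in at least 2 population libraries likewise. P-values were Benjamini-Hochberg adjusted over all genes tested, with a threshold of 0.05. In cells the prior degrees of freedom were infinite, so each gene's spread is the trend over genes. The p-values in cells therefore set a gene's difference against the spread between 4 plates from 2 sources pooled over genes, not against its own spread. In the population libraries the prior degrees of freedom were 7.35 against 1 residual, so a gene's own spread has a small part. Genotype differences are differences of 1 plate or library against 1, with a limit of 1 log2 and no test. Shares carry exact Clopper-Pearson 95% intervals from scipy 1.17.1. The limma step was run on simulated data with independent noise of the same size for every gene. That checks the code and does not bear on the calls in these data. Promoter windows came from RefSeq tables (GRCm38.p6), gene positions from GENCODE M21 on GRCm38.

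Alternatives were pseudocount 10, arithmetic means, other gene filters, a minimum of 2000 genes, matched cells, leaving out Foxp3-positive cells or cells with markers of other cell types, no block, no trend, leaving out each plate or library, and, for members per cell, a limit of 10 FPKM. Centring on the plate median and the form of the marker filter that leaves Tyr out were chosen after seeing the data. The members, the gene lists, the marker lists and the motifs were chosen with earlier results of these data known. Values in every plate and library are given for members past the adjusted threshold, for the member of each role with the widest difference in cells in each comparison, and for members past 1 log2 between genotypes in cells. Of the other pathway genes, those past the threshold and the widest of each group are named, except for an item that is not reported here. Hras and the myeloid marker Adgre1 were not found by symbol.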

Additional observations from a re-analysis of the deposited data

Results flagged for a closer look

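Cd6 was listed at 689.9 FPKM in the no-cell well of the wild-type CD4 plate, where 26 genes were at 1 FPKM or more. It was the only member above 0 in any of the 4 no-cell wells. The value lies near the median of 715.0 FPKM in the 42 cells of that plate that had Cd6 detected. The cause was not tested.

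For Cbl, the population library labelled knockout was 1.34 log2 higher than the wild-type one in CD8 and differed by -1.71 log2 in CD4. The plate means of cells had the same signs. Each value compares 1 library with 1, and the difference between the cell types was not tested.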

How the results depend on the processing

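The 7 members called between CD4 and CD8 cells kept their direction in all alternatives run, but their calls did not hold. The 6 lower and 1 higher members became 0 and 0 with pseudocount 10, with arithmetic means, with cells of 2000 or more genes, without cells with markers of other cell types (Tyr not used) and with centred plates. They became 3 and 0 with genes in 25% of cells, 0 and 3 with matched cells, and 1 and 0 without the block. Without Foxp3-positive cells 0 members were higher. Leaving out 1 plate gave 0 to 5 lower and 0 to 1 higher members, with 0 and 0 without the wild-type CD4 plate or the labelled-knockout CD4 plate, and 2 lower without the wild-type CD8 plate. Of all genes, the 6.32% lower and 1.12% higher became 0.142% and 0.0831% with pseudocount 10, 1.07% and 0.914% with arithmetic means, 2.75% and 0.692% with genes in 25% of cells, 3.05% and 0.685% with no gene filter, 0.0996% and 0.0221% with cells of 2000 or more genes, 0.329% and 0.741% with matched cells, 0.743% and 0.354% without marker-positive cells, 0.593% and 0.237% without the block, 1.78% and 0.356% without the trend, and 0.273% and 0.57% with centred plates. Without Foxp3-positive cells 0.274% were higher. Leaving out 1 plate gave 0.202% to 12.7% lower and 0.119% to 0.914% higher, 12.7% being without the labelled-knockout CD8 plate.

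In the population libraries, the 0 lower and 0 higher members became 2 and 3 with no gene filter, and 1 was higher with pseudocount 10 and with centred libraries (Cd5 in both). Of all genes, the 0.0182% lower and 0.0182% higher became 0.254% and 0.282% with pseudocount 10, 2.95% and 1.51% with no gene filter, 0.00908% and 0.00908% without the block, 1.09% and 0.999% with centred libraries, and 0.0% and 0.0% without the trend and when any library was left out.

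Between genotypes, the 3 members lower and 4 higher in CD8 cells became 0 and 1 with pseudocount 10 and 1 and 2 with arithmetic means. With cells of 2000 or more genes 11 were lower, and with matched cells 2 were higher. The 4 lower and 1 higher members in CD4 cells became 1 and 1 with pseudocount 10, 1 and 0 with arithmetic means, and 10 lower without marker-positive cells. With cells of 2000 or more genes and without Foxp3-positive cells 2 were higher. In the population libraries, pseudocount 10 left 0 higher members in CD8 and 0 in CD4. The share of all genes past 1 log2 under these settings is not given here. These genotype counts therefore do not set the members apart from other genes. The medians of members per cell moved by less than the spread between cells under both alternatives.

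No paired analysis was possible by replicate number, because the groups share none in the labels; the block pairs the CD4 and CD8 plates of each source. The planned removal of all cells with any melanoma marker was not run, since Tyr is detected in 97.4% to 100% of the cells of a plate. The calls rest on 4 plates, genotype on 1 plate or library per cell type, and low shares on an unknown read depth. The cause of the changes with settings was not tested, beyond the smaller number of plates, cells or genes that some of them use.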
